A study of Mus musculus with 4 samples.

Results

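Genes of drug and xenobiotic metabolism were taken from the deposited expression table by symbol: cytochromes P450 whose symbol begins with Cyp2, Cyp3a or Cyp4, the UDP-glucuronosyltransferases Ugt1a and Ugt2, the sulfotransferases Sult, the glutathione transferases Gst, the carboxylesterases Ces and the carbonyl reductases Cbr. The symbols gave 168 of 22632 rows. The rule reads symbols alone, but it was set with earlier results of these data known. A level of 1 RPKM (reads relative to the length of the gene and the size of its library) in at least 1 library was reached by 95 of the 168. The other 73 are only counted here, and 23 of those were listed at 0 in every library. The prefixes also bring in Cyp20a1, P450s of steroid, vitamin D and retinoid metabolism such as Cyp27a1, and Gstcd, a protein with a transferase-like domain that is not one of the classical enzymes. These 10 rows, 3 of them at the level of 1 RPKM, are kept as a group of their own.

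RNA was sequenced from 4 cultures of mouse small intestinal organoids, epithelial bodies grown in Matrigel from isolated crypts with Egf, Noggin and Rsp1, 24 hours after seeding, with 1 library per group. Yap+/- organoids came from Yap+/fl;VillinCre mice and Yap-/- organoids from Yapfl/fl;VillinCre mice, in which Cre is made in gut epithelium. The third line, YapTg, has a doxycycline-inducible transgene for wild-type Yap, driven through a Cre-dependent reverse tetracycline transactivator (rtTA). Its organoids were kept either free of doxycycline, here called uninduced, or with it from seeding on (1.5 mg/ml as labelled), here called induced. The labels do not say which Cre line YapTg carries, how old the mice were or how many gave crypts, and no library had doxycycline without the transgene, so effects of drug and transgene cannot be told apart. A single library stands for each group, so no p-value was computed and nothing here was checked in replicates. Intervals in brackets are 95% intervals and cover counting error only.

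The enzymes of this set turn fat-soluble foreign compounds, bile acids, steroids and fatty acids into products that can leave the cell. P450s, carboxylesterases and carbonyl reductases expose or add a reactive group, and transferases then attach glucuronic acid, sulfate or glutathione. In the small intestine they are made mostly by absorptive enterocytes, where they form a first barrier to what is swallowed, and several are controlled by the nuclear receptors PXR and CAR, by HNF4A and HNF1, or by the stress-sensing factor NRF2.

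Library totals lay between 44934170 and 75269003 reads. The Yap1 gene had 16.7 RPKM (Yap+/-), 3.35 RPKM (Yap-/-), 25.1 RPKM (uninduced) and 1039 RPKM (induced), which follows the labels. Enterocyte markers had summed levels of 7773, 10825, 4866 and 1591 RPKM in the same order of libraries. Of 5 liver markers, Alb was at 0.104 to 0.607 RPKM, Serpina1a and Tdo2 were below that, Ttr was at 0.262 to 5.23 RPKM and Apob, which enterocytes also make, at 85.0 to 126 RPKM. Of 5 stromal markers, Col3a1 was listed at 0 throughout, Col1a1, Col1a2 and Pdgfra had at most 5 reads in any library, and Vim was at 0.381 to 3.46 RPKM. Of 5 immune markers, Cd52 was at 2.09 to 5.76 RPKM and Cd68 at 0.601 to 1.22 RPKM, while Ptprc, Cd3e and Cd79a stayed at or below 0.256 RPKM.

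Drug-metabolism genes were abundant in all 3 libraries without induced Yap and much lower in the induced one. Among the 95 genes, 33 stood at 100 RPKM or more in Yap+/- organoids, 33 in Yap-/-, 26 in uninduced YapTg and 3 in induced YapTg (Gsta1, Gsta4 and Gsto1). The induced library was the lowest of the 4 for 87 of the 95 genes and the highest for 5. These counts were not made over all genes. The 3 levels of highest rank in Yap+/- were those of the glutathione transferase genes Gstm2-ps1, Gstm1 and Gstm3. Of the 100 genes with the highest RPKM in a library, 7 belonged to these families in Yap+/- and 6 in Yap-/- organoids, against 3 uninduced and 0 induced. Added up, the 95 genes gave 11271 RPKM (Yap+/-), 12111 RPKM (Yap-/-), 7178 RPKM (uninduced) and 2317 RPKM (induced), a sum in which reads of near-identical genes can count more than once.

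**Figure D1:**
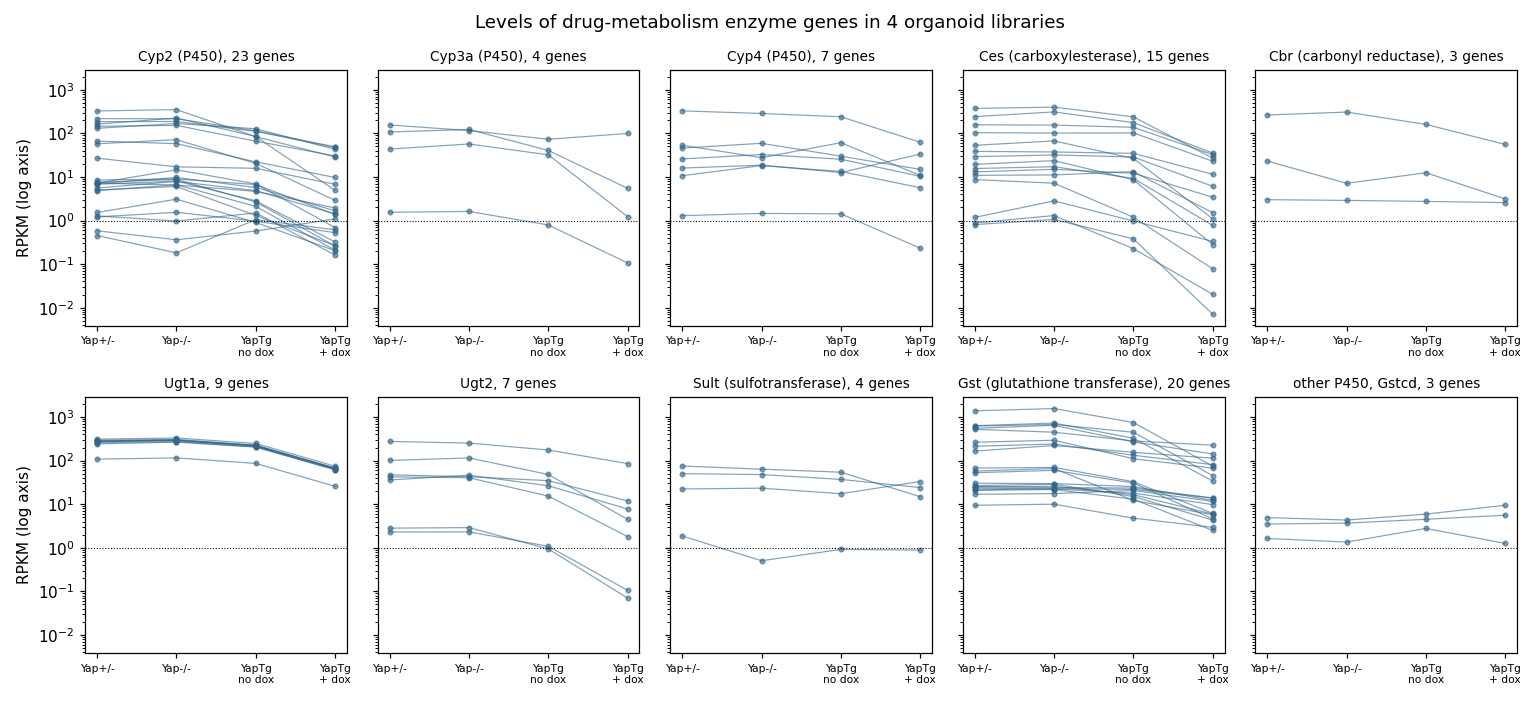
Level in RPKM (log axis) of each of the 95 genes at 1 RPKM or more, by enzyme class, in the 4 libraries, with lines that join the values of 1 gene and a dotted line at 1 RPKM. In 87 of the 95 genes the value with doxycycline is the lowest of the 4, a share not computed over all genes.

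The induced culture was set against the uninduced culture of the same line, the pair in which Yap is overexpressed. Of the 87 genes that reached 1 RPKM in either YapTg library, 60 were at least 2-fold lower with doxycycline (on the log2 scale of RPKM plus 1), 69.0% of them, against 5.8% of all 11108 genes. Only Cyp4b1 was at least 2-fold higher, against 5.85% of all genes, and calls in either direction were 11.6% of all genes. Counting intervals left out equal levels for 80 of the 87 genes with the lower value under doxycycline (46.0% of all genes) and for 6 with the higher (37.3%). The median log2 ratio of the 95 genes was -1.34, and that of all 11285 genes at the same level was -0.05. Values were below 0 for 89 of the 95 genes and for 54.9% of all genes. Among the 87 were 13 genes that reached 1 RPKM in only 1 of both YapTg libraries, 8 of them called. The summed level of the 10 enterocyte markers was lower in the same library, at 4866 and 1591 RPKM, with 6 of the 10 at least 2-fold lower. Goblet markers were at 2655 and 675 RPKM in sum (7 of 7 lower), stem markers at 521 and 53.6 RPKM (4 of 5 lower) and Paneth markers at 5474 and 3324 RPKM (1 of 4 lower). Alpi, Apoa1 and Vil1, of the same marker list, stood at 370 and 349, 471 and 449, and 222 and 208 RPKM. Fewer enterocytes and less enzyme RNA per enterocyte cannot be told apart in such whole-culture libraries, and the part of cell composition in these differences was not tested.

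**Figure D2:**
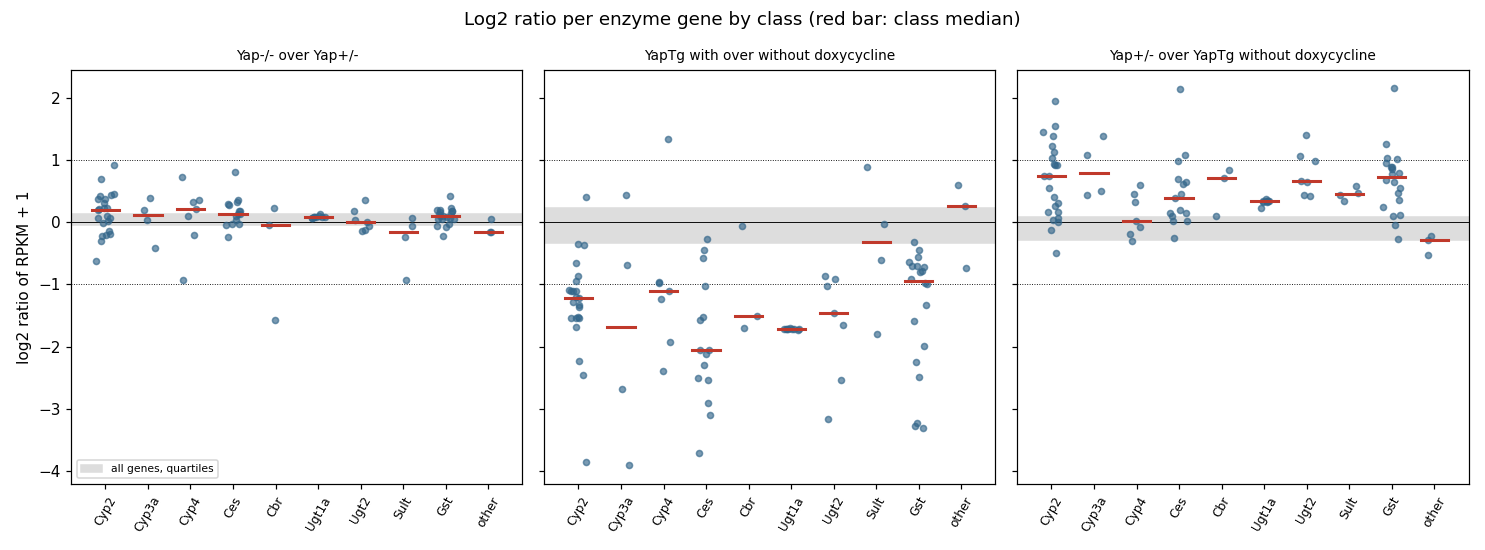
Log2 ratio of RPKM plus 1 for each of the 95 genes by enzyme class in 3 pairs of libraries, with a red bar at the class median, a grey band between the quartiles of all 11285 genes and dotted lines at 2-fold. Class medians with doxycycline lie between -2.06 (carboxylesterases) and -0.31 (sulfotransferases) apart from the mixed group at 0.26, whereas class medians without Yap lie between -0.16 and 0.21.

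Because these genes were low together in the induced library, the 250 bases before their start sites were searched for 9 short motifs in RefSeq promoters of the GRCm38.p6 build. Promoters were found for 84 of the 95 genes, 101 start sites in all. The sequence CAAAGT, the core of sites for HNF4A, was present on either strand in 31 of these 101 promoters (30.7%), in 12.6% of all 32851 promoters of the table and in 10.9% of the 10091 promoters of genes at 1 RPKM. The 31 promoters belong to 29 genes, among them Cyp2c, Ces2 and Cyp3a genes with similar promoter sequence, so they are not independent examples. CAAAGT was in 21 of 62 promoters of genes at least 2-fold lower with doxycycline and in 10 of 39 promoters of the other genes. It was thus also frequent in enzymes that were not called lower. Its longer form CAAAGTCCA, which contains CAAAGT, was in 6 promoters, those of Cyp3a11, Cyp2c40, Cyp2c65, Cyp2c67, Cyp2c68 and Cyp2c69, and in 0.384% of all promoters. The HNF1 motif GTTAATNAT was in 5, those of Ugt1a1, Ugt1a9, Ugt1a10, Sult1d1 and Cyp4f40, and in 0.737% of all promoters. Genes holding either of these long motifs were all among those at least 2-fold lower with doxycycline, but the 5 Cyp2c genes share sequence, and the 3 Ugt1a genes come from 1 locus whose rows share exons, so neither group counts as independent examples. The TEAD motif GGAATG was in 9 of 62 promoters of lower genes, 2 of 39 of the others and 12.6% of all, and the AP-1 motif TGANTCA in 3 of 62 promoters of lower genes, 8 of 39 promoters of the other genes, and 6.75% of all. Of the other motifs, the GATA motif AGATAA was in 19.8% of the 101 promoters and 9.99% of all. The antioxidant response motif TGACNNNGC was in 3.96% and 10.2%, the CDX motif TTTATG in 9.90% and 10.8%, and TATAAA in 13.9% and 12.4%. In promoters of genes at 1 RPKM the shares of these motifs were 6.14%, 11.9%, 6.16% and 6.73% in the same order. A match is a description of letters and not a bound site. The 150 bases before the start are shown 5′ to 3′ for 3 genes with the HNF1 motif, 2 with CAAAGT, and for Cyp3a13 and Cyp4b1, which were higher with doxycycline and had neither motif. Other genes that were higher with doxycycline did hold CAAAGT, namely Cyp20a1 and 1 of the 2 Sult2b1 promoters. Capitals mark the matches:
Ugt1a1, chr1:88211809-88211958, plus strand: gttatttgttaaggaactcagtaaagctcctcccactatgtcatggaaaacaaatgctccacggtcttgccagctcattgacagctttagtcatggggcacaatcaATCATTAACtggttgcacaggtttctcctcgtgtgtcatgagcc
Ugt1a9, chr1:88070629-88070778, plus strand: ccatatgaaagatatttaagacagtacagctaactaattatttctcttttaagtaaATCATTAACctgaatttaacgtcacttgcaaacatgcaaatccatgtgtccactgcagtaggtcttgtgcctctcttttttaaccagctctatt
Sult1d1, chr5:87569007-87569156, minus strand: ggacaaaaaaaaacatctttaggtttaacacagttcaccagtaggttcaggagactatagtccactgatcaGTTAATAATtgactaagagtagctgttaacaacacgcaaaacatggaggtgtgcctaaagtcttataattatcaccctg
Cyp3a11, chr5:145879855-145880004, minus strand: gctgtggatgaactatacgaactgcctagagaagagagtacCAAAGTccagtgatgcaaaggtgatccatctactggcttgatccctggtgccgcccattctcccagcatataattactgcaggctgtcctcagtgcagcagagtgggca
Ces2a, chr8:104733853-104734002, plus strand: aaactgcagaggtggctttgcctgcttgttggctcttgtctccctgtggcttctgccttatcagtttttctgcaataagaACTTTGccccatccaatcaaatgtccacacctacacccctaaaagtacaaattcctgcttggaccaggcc
Cyp3a13, chr5:137921620-137921769, minus strand: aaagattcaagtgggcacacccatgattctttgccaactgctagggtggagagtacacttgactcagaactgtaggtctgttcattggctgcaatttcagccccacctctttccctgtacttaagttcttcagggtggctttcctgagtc
Cyp4b1, chr4:115647722-115647871, minus strand: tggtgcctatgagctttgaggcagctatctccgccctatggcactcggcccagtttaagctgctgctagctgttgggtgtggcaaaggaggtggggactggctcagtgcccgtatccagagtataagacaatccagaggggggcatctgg

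P450s of family Cyp2, which oxidise drugs, steroids and polyunsaturated fatty acids, had 23 of 50 rows at 1 RPKM. With doxycycline 17 of 21 were at least 2-fold lower and 0 higher. Cyp2d26, of a subfamily that in humans handles many drugs, had 164 RPKM (Yap+/-), 225 RPKM (Yap-/-), 84.8 RPKM (uninduced) and 4.93 RPKM (induced), 17.2-fold lower with doxycycline (15.8 to 18.7). Cyp2c29, an abundant retinoid- and arachidonate-oxidising enzyme, was at 327, 351, 84.2 and 28.7 RPKM in the same order, 2.94-fold lower with doxycycline (2.86 to 3.02). Its uninduced level was thus already well below that of the Yap+/- and Yap-/- libraries. Cyp2c66, at 218, 216, 115 and 49.0 RPKM, was likewise lower uninduced than in the Yap+/- and Yap-/- libraries and lowest when induced, with a 2.35-fold gap (2.28 to 2.42). The 11 measured Cyp2c genes ranged widely, from 1.83-fold lower for Cyp2c44 to 10.3-fold lower for Cyp2c38. Cyp2b10, the classical target of the receptor CAR, was at 131, 169, 128 and 43.1 RPKM, 2.96-fold lower with doxycycline (2.87 to 3.05). Cyp2u1, a fatty acid hydroxylase, was at 7.26, 14.6, 6.91 and 0.690 RPKM, and 2.01-fold higher without Yap (1.91 to 2.12), so that the Yap-/- library was the highest and the induced library the lowest. Cyp2w1 went the other way at low level, from 0.574 to 1.09 RPKM.

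Within the Cyp3a family, which handles a large share of swallowed drugs, the members parted. Cyp3a25 stood at 43.7 RPKM (Yap+/-), 57.2 RPKM (Yap-/-), 32.2 RPKM (uninduced) and 1.22 RPKM (induced), 26.3-fold lower with doxycycline (22.7 to 30.6), the lowest log2 ratio of the 95 genes. Cyp3a11, the main PXR-responsive form, was at 108, 123, 40.6 and 5.49 RPKM, 7.39-fold lower (7.04 to 7.77). Cyp3a13, a form made mostly outside the liver, was at 156, 116, 73.3 and 99.7 RPKM, and thus 1.36-fold higher with doxycycline (1.33 to 1.39) and 1.34-fold lower in Yap-/- than in Yap+/- organoids (1.32 to 1.36). In induced organoids Cyp3a13 made up most of the summed Cyp3a level of 107 RPKM. In RefSeq gene order Cyp3a11, Cyp3a25 and Cyp3a59 lie in 1 run on chromosome 5, and Cyp3a13 lies on the same chromosome outside that run. Cyp3a25 and Cyp3a59 share 25.2% of the 50-base windows of Cyp3a25 transcripts, so some reads of this pair may be counted under either.

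Family Cyp4, fatty acid and leukotriene hydroxylases, had 4 of 7 genes at least 2-fold lower with doxycycline. Cyp4f14, the most abundant of them, had 329, 286, 241 and 62.6 RPKM in the same order, 3.85-fold lower (3.76 to 3.94). Cyp4f16 was at 53.5, 27.6, 61.3 and 10.8 RPKM, 5.65-fold lower with doxycycline (5.40 to 5.91) and also 1.94-fold lower without Yap (1.88 to 2.01). Both manipulations thus had the lower value for this gene. Cyp4b1, a P450 of lung and epithelia that activates furans and aromatic amines, was at 16.0, 18.6, 12.6 and 33.4 RPKM, and was 2.65-fold higher with doxycycline (2.49 to 2.81). The mixed group beside these families had Cyp20a1, a P450 with no settled substrate, at 4.93, 4.33, 5.93 and 9.46 RPKM and Gstcd at 3.51, 3.68, 4.51 and 5.59 RPKM. Cyp27a1, a sterol hydroxylase, stood at 2.78 and 1.26 RPKM without and with doxycycline.

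Carboxylesterases, which split ester and amide drugs and lipids, were all lower with doxycycline in the 12 genes that could be compared, and the class had the lowest median of the 9 enzyme classes (-2.06). Ces2a had 375 RPKM (Yap+/-), 401 RPKM (Yap-/-), 240 RPKM (uninduced) and 27.1 RPKM (induced), 8.85-fold lower (8.58 to 9.13). Ces2e was at 242, 311, 176 and 35.3 RPKM, 5.0-fold lower (4.86 to 5.13). The 8 Ces2 genes lie in 1 run on chromosome 8 and were 3.03-fold to 8.85-fold lower. Genes of the Ces1 type, which are best known from liver, were less abundant, with a summed level of 47.2 RPKM uninduced and 2.59 RPKM induced. Ces1f was at 53.2, 67.2, 26.6 and 1.10 RPKM, 24.1-fold lower with doxycycline (21.3 to 27.4), and Ces1d at 19.4, 23.7, 8.62 and 0.280 RPKM, 30.8-fold lower (23.1 to 41.7). Ces1g, a lipid-droplet and chylomicron esterase, differed most between the reference cultures, at 8.70, 7.19, 1.19 and 0.0779 RPKM. Ces2c and Ces2d-ps share sequence, and their values of 4.24-fold and 4.47-fold lower may rest partly on the same reads.

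Carbonyl reductases, which reduce quinones and ketones, gave the only call in the comparison of Yap-/- with Yap+/- organoids, which asks which transcripts need the gene. Cbr3 had 23.2 RPKM with 1 intact Yap allele and 7.14 RPKM with none, and 12.5 RPKM uninduced and 3.13 RPKM induced. Its level was 3.24-fold lower without Yap (2.95 to 3.58) and 3.99-fold lower with doxycycline (3.46 to 4.61), the lower value in both pairs. Its neighbour Cbr1, the general cytosolic form, was at 264, 308, 161 and 55.7 RPKM, 1.17-fold higher without Yap (1.15 to 1.18) and 2.88-fold lower with doxycycline (2.81 to 2.95). Cbr4, a mitochondrial form, was at 2.58 to 3.01 RPKM in all 4 libraries.

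Yap loss otherwise left these enzymes close to the Yap+/- level. Of 93 genes at 1 RPKM in either library, 1 was at least 2-fold lower (Cbr3, 1.08%, against 0.57% of all 10710 genes) and 0 were at least 2-fold higher (0.336% of all genes). Calls in either direction made up 0.906% of all genes, so the share among the enzymes is near the background. Values within 1.25-fold of each other on the scale of RPKM plus 1 were seen for 74 of the 95 genes, and the median log2 ratio was 0.08 against 0.05 for all genes. Counting intervals left out equal levels for 54 of the 93 genes with the higher value in Yap-/- (41.0% of all genes) and for 18 with the lower (17.2%), which says only that these libraries differ by more than counting error. Among small genes on the RPKM scale, Ces1c was at 1.18 and 2.82 RPKM, Cyp2e1, the ethanol-oxidising P450, at 1.53 and 3.09 RPKM, and Sult1c2 at 1.87 and 0.504 RPKM in Yap+/- and Yap-/-. Paneth cell markers, by contrast, had summed levels of 2384 and 4707 RPKM in this pair, with 2 of 4 at least 2-fold higher in Yap-/-. Enterocyte markers had 7773 and 10825 RPKM in sum, but 0 of 10 were at least 2-fold higher or lower. Of these, Fabp1 alone was at 3457 and 5766 RPKM, while Alpi, Apoa1 and Anpep had the lower value in Yap-/-.

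The 9 Ugt1a rows, glucuronosyltransferases that conjugate bilirubin, bile acids and phenols, looked almost alike, between 3.30-fold and 3.36-fold lower with doxycycline. They come from 1 locus on chromosome 1 in which each form has its own first exon and all share the rest, and 52.1% to 79.8% of their 50-base windows lie in another gene as well. Read numbers of the 9 rows in Yap+/- lay between 34937 (Ugt1a5) and 44577 (Ugt1a7c), with Ugt1a1 at 39408 and the other 6 at 36626 or fewer. Most reads of each row could thus be the same reads, and the 9 rows are not independent measurements. To look at the forms apart, the reads of the row with the fewest, Ugt1a5 in all 4 libraries, were subtracted from each row, which leaves reads of the parts a row has beyond it.

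By that measure Ugt1a7c and Ugt1a1, the bilirubin-conjugating form, led. Scaled to library size as RPM (reads relative to the library total), Ugt1a7c had 169 RPM above Ugt1a5 in Yap+/-, 210 RPM in Yap-/-, 180 RPM uninduced and 55.9 RPM induced, 3.23-fold lower with doxycycline (3.11 to 3.35). Ugt1a1 had 78.5, 88.0, 63.6 and 19.7 RPM, also 3.23-fold lower (3.03 to 3.44). Ugt1a9 had 29.7, 24.6, 8.99 and 1.47 RPM and was 6.10-fold lower (4.93 to 7.59). Its reads above Ugt1a5 were 1.81% of its row uninduced and 0.999% induced. Intervals for these forms treat the reads left after subtraction as plain counts and leave out any error of the subtracted Ugt1a5 reads. They are therefore too narrow to set the forms apart. Ugt1a9 also had a 3.30-fold gap between Yap+/- and uninduced organoids (2.96 to 3.69), where Ugt1a1 had 1.23-fold. Ugt1a8 was 3.60-fold lower with doxycycline and Ugt1a10 3.59-fold (2.26 to 5.84). Ugt1a2 was at most 12 reads above Ugt1a5 in any library. Rows with longer gene models, such as Ugt1a6a and Ugt1a7c, may hold later exons of their own, so these numbers are not pure first-exon counts. Ugt1a6b shares 79.6% of its windows with Ugt1a6a.

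**Figure D3:**
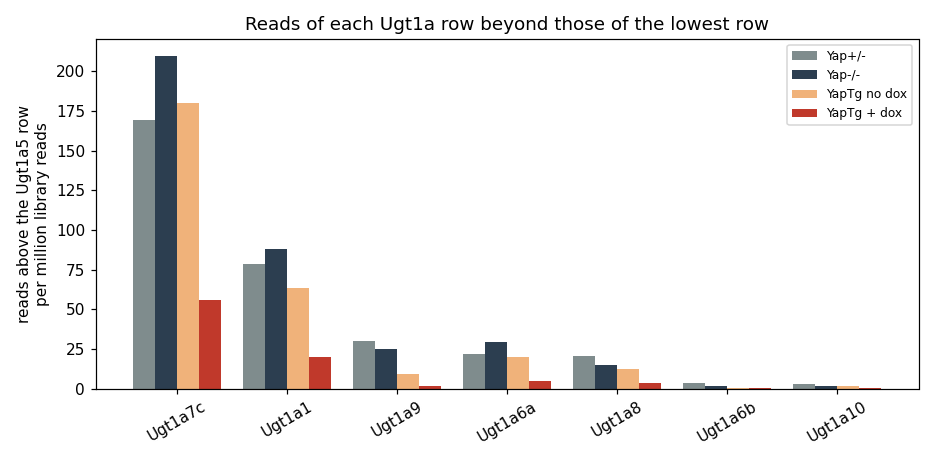
Reads of each Ugt1a row beyond those of the Ugt1a5 row, in RPM, shown as bars for the 4 libraries, for the 7 rows above 1 RPM in Yap+/-. Ugt1a7c is the highest in every library, and each row is lower with than without doxycycline.

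Family Ugt2, which conjugates steroids and bile acids, had 5 of 6 compared genes at least 2-fold lower with doxycycline. Ugt2b34 was the most abundant, at 276 RPKM (Yap+/-), 253 RPKM (Yap-/-), 176 RPKM (uninduced) and 85.5 RPKM (induced), 2.05-fold lower (2.02 to 2.09). Ugt2b5 was at 101, 115, 48.1 and 4.49 RPKM, 10.7-fold lower (9.85 to 11.7), and shares 41.7% of its windows with other genes. Neighbours in the same run on chromosome 5 thus ranged from 2.05-fold to 13.4-fold lower within Ugt2. The 13.4-fold value was that of Ugt2b37, a gene of low level that was not called on the scale of RPKM plus 1. Among the called Ugt2 genes the range was 2.05-fold to 10.7-fold. Sulfotransferases, which add sulfate from the donor PAPS, were mixed. Sult1b1, a phenol and thyroid hormone sulfotransferase, was at 50.3, 47.9, 37.1 and 24.1 RPKM, 1.54-fold lower (1.48 to 1.60), and Sult1d1, which acts on catecholamines, at 75.1, 63.7, 54.2 and 14.9 RPKM, 3.64-fold lower (3.48 to 3.81). Sult2b1, the cholesterol sulfotransferase of skin and other barrier epithelia, was at 22.4, 23.3, 17.4 and 33.2 RPKM, 1.90-fold higher with doxycycline (1.83 to 1.98) but short of the 2-fold rule.

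Glutathione transferases split by type. Of 20 genes 8 were at least 2-fold lower with doxycycline and 0 higher, and 7 of those 8 were of the mu type (Gstm), with Gstt1 the other. Gstm1 had 634 RPKM (Yap+/-), 728 RPKM (Yap-/-), 327 RPKM (uninduced) and 34.0 RPKM (induced), 9.61-fold lower (9.27 to 9.96). Gstm3 was at 620, 676, 448 and 45.4 RPKM, 9.86-fold lower (9.57 to 10.2). Gstm2-ps1, listed at 1390, 1567, 749 and 74.7 RPKM over a length of 258 bases, is named a pseudogene, and reads of the Gstm genes may be counted there. Gstm5 stood apart from its neighbours at 25.5, 24.0, 23.5 and 13.9 RPKM, 1.69-fold lower (1.56 to 1.82), while the other 6 genes of that run on chromosome 3 were 3.49-fold to 9.86-fold lower.

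Alpha-type transferases kept more of their level. Gsta1 had 550 RPKM (Yap+/-), 646 RPKM (Yap-/-), 270 RPKM (uninduced) and 142 RPKM (induced), 1.90-fold lower with doxycycline (1.85 to 1.95), and 90.5% of its windows occur in other genes. Gsta4, which detoxifies lipid peroxidation products, was at 523, 450, 284 and 226 RPKM, 1.25-fold lower (1.22 to 1.28), the smallest gap of the 20. Summed mu-type levels were 1639 and 186 RPKM without and with doxycycline, 8.83-fold apart, and summed alpha-type levels 676 and 441 RPKM, 1.53-fold apart. In the uninduced library the mu type was thus the larger of both sums, and in the induced library the alpha type was. Gstp1, Gsto1 and Gstz1 were 1.64-fold, 1.37-fold and 1.59-fold lower.

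**Figure D4:**
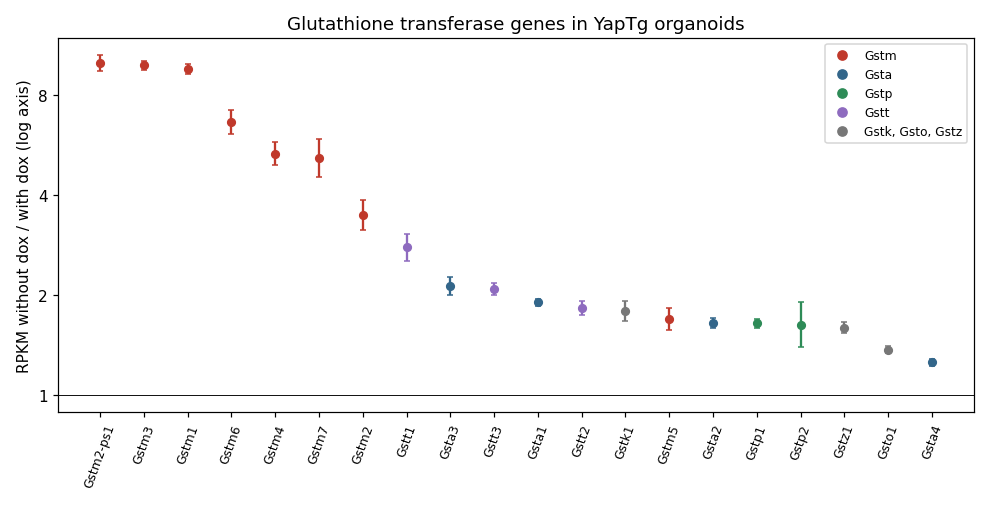
Ratio of RPKM without over with doxycycline (log axis) for the 20 glutathione transferase genes, ordered by size and coloured by type, with bars for the 95% counting interval. All mu-type genes but Gstm5 lie at 3.49 or more, and the other types between 1.25 and 2.78.

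The reference cultures themselves differed in these enzymes, although neither lacks Yap fully or is induced. Of 92 genes at 1 RPKM in either, 17 (18.5%) were at least 2-fold higher in Yap+/- than in uninduced YapTg organoids (against 1.11% of all 10883 genes) and 0 lower (0.726%; 1.84% in either direction). Counting intervals left out equal levels for 74 of the 92 with the higher value in Yap+/- (24.0% of all genes) and 8 with the lower (53.1%). The 17 included Gsta3 at 57.5 and 12.2 RPKM (4.71-fold), Cyp2c29 (3.88-fold) and Cyp3a11 (2.66-fold). The median log2 ratio of the 95 genes was 0.45, and that of all genes -0.11, a shift that median-ratio scaling moved to 0.01. Uninduced YapTg organoids were below both Yap+/- and Yap-/- organoids for 80 of the 95 genes, a share not computed over all genes. Of the 17 genes, 12 were also at least 2-fold lower with doxycycline, a comparison that shares the uninduced library. The cultures differed in mouse line, and line, preparation and genotype cannot be told apart here. Enterocyte markers had 7773 RPKM in sum in Yap+/- against 4866 RPKM uninduced, with 3 of 10 at least 2-fold higher and 0 lower. Fabp1 alone was at 3457 and 1938 RPKM. Anpep (123 and 176 RPKM), Sis (495 and 612 RPKM) and Vil1 (217 and 222 RPKM) had the lower value in Yap+/-.

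Position went with the values only in part. In RefSeq order, with at most 5 protein-coding genes between neighbours, 94 genes could be placed in 34 runs, and 11 runs of 3 or more held 68 genes. With doxycycline every gene was at least 2-fold lower in the Ugt1a run, the Ces2 run and the run of Cyp2s1 and the Cyp2b genes. The 10 placed Cyp2c genes of chromosome 19 included 9 such genes. The 3 Gsta genes of chromosome 9 included 0, at 1.25-fold to 1.90-fold lower. The genes that were higher with doxycycline, Cyp4b1, Cyp3a13, Sult2b1, Cyp20a1, Cyp2w1 and Gstcd, each stood outside the runs of 3 or more.

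Genes that serve these enzymes were read from lists of regulators, cofactor supply, transporters and other drug-handling enzymes. Of 10 xenobiotic sensors and partners, 3 were at least 2-fold lower with doxycycline (5.8% of all genes) and 0 higher (5.85%). Nr1i3, which encodes CAR, had 21.7 RPKM (Yap+/-), 25.1 RPKM (Yap-/-), 21.4 RPKM (uninduced) and 8.51 RPKM (induced), 2.51-fold lower (2.39 to 2.64). The vitamin D receptor gene Vdr was 4.39-fold lower (69.3 and 15.8 RPKM) and Ppara 2.35-fold lower. Nfe2l2, which encodes NRF2, was at 92.8, 81.6, 81.0 and 67.0 RPKM. Of 10 intestinal transcription factor genes 4 were lower and 0 higher. Hnf4g was at 66.9 and 20.6 RPKM without and with doxycycline, whereas Hnf4a was at 187 and 196 RPKM. Foxa2, Foxa3 and Cdx1 were 3.17-fold, 2.83-fold and 2.13-fold lower.

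Cofactor supply was at least 2-fold lower for 4 of 8 genes, against 5.8% of all genes. Papss2, which makes the sulfate donor PAPS, was at 207 and 47.7 RPKM without and with doxycycline, 4.35-fold lower (4.26 to 4.44). Ugdh, which makes UDP-glucuronic acid, was 2.32-fold lower, and Cyb5 and Cyb5r3, which pass electrons to P450s, 2.71-fold and 2.26-fold. The electron donor gene Por was not called, at 51.8 and 33.8 RPKM, 1.53-fold lower. Papss1 (33.2 and 24.3 RPKM) and Ugp2 (39.3 and 30.9 RPKM) were not called either, and Gss had the higher value with doxycycline (23.2 and 33.6 RPKM). Efflux pumps were mixed, with 3 of 8 at least 2-fold higher (5.85% of all genes) and 1 lower (5.8%). Abcc5 was at 1.70 and 16.0 RPKM, 9.41-fold higher (8.76 to 10.1), and Abcg2, the breast cancer resistance protein gene, at 11.5 and 30.7 RPKM, 2.68-fold higher (2.60 to 2.76). Abcc1 was 2.48-fold higher, and Abcc2, a pump for conjugates on the apical membrane, 2.22-fold lower. The P-glycoprotein gene Abcb1a stood at 51.6 and 31.6 RPKM, Abcb1b at 5.52 and 2.89 RPKM, Abcc4 at 1.09 and 0.925 RPKM and Abcc3 at 23.5 and 42.2 RPKM.

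Of 18 compared drug-handling enzymes outside the chosen families, 13 were at least 2-fold lower with doxycycline (5.8% of all genes) and 1 higher (5.85%). The alcohol dehydrogenase gene Adh1 had 908 RPKM (Yap+/-), 976 RPKM (Yap-/-), 426 RPKM (uninduced) and 54.3 RPKM (induced), 7.84-fold lower (7.66 to 8.02). Aldh1a1, which makes retinoic acid, was 2.84-fold lower and Akr1b7, an aldose reductase-like enzyme, 11.2-fold lower. None of these lists was called at 2-fold in more than 2 genes without Yap. That pair had 1 lower gene of 11 among the NRF2-type antioxidant genes (Hmox1). Among the other drug-handling enzymes 2 of 19 were lower (Akr1b8 and Cyp1a1), against 0.57% of all genes.

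**Figure D5:**
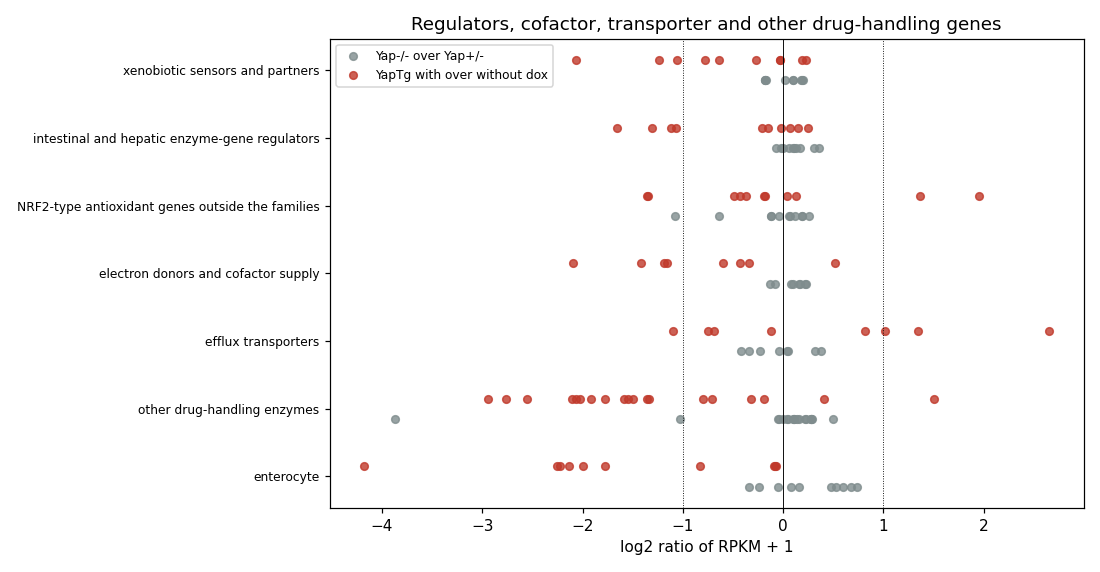
Log2 ratio of RPKM plus 1 for each gene at 1 RPKM or more in lists of regulators, antioxidant genes, cofactor supply, efflux pumps, other drug-handling enzymes and enterocyte markers, grey for Yap-/- over Yap+/- and red for YapTg with over without doxycycline, with dotted lines at 2-fold. With doxycycline 13 of 18 compared drug-handling enzymes lie below -1 (5.8% of all genes), and 3 of 8 efflux pumps lie above 1 (5.85%).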

How the data were processed

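RNA-seq libraries of 4 groups were used, 1 per group, taken from the genotype and source name in the labels. The submitters' processing notes name CASAVA 1.8, FastQC, TopHat 1.4.1 and the mm9 build. No source used here names the counter, the annotation or the strand setting. RPKM values were used as the authors deposited them, a unit identified from the values; 0 columns were left unused. GENCODE M21 gene lengths gave the library totals, and a whole gene length was sought that makes the reads whole within 0.0005 in every library. This worked for 145 of 145 genes of the set above 0; the length equalled GENCODE M21 for 65. Where several lengths fitted, the one nearest to GENCODE M21 was taken. Read numbers, the counting intervals drawn from them and the Ugt1a values left after subtraction depend on that choice, but ratios of RPKM do not.

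Log2 ratios used RPKM plus a pseudocount of 1, which understates differences of low genes. A gene was called at 2-fold with 1 RPKM in the higher library. Folds in the text are RPKM ratios, with exact conditional (Clopper-Pearson) 95% intervals from the reads. PCR copies are not independent molecules. No test was possible. Shared sequence was measured as 50-base windows of GENCODE M21 transcripts. The analysis used Python 3.11.15, pandas 2.3.3 and SciPy 1.17.1, and its steps were tested on simulated data. The genes, lists and motifs were chosen with earlier results of these data known. Genes named are the 15 highest by mean level, the 2 highest per class and up to 10 furthest called genes per direction and comparison; others (among them Cyp2b10, Cyp2c38, Cyp2c44, Cyp2e1, Cyp2u1, Cyp2w1, Ces1c, Ces1g, Cbr4, Gsta3, Gstm5, Gstp1, Gsto1, Gstz1, Gstt1, Sult1c2, Sult2b1, Cyp27a1, Ugt1a6a, Ugt1a7c, Abcb1a, Akr1b7, Aldh1a1, Alpi, Apoa1 and Vil1) were chosen after their values were seen. Nothing further was filtered. The alternatives were other pseudocounts, floors, thresholds and scalings, and subsets of genes.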

Additional observations from a re-analysis of the deposited data

How the results depend on the processing

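No paired analysis was possible because each group has 1 library, and for the same reason no replicate could be left out. With doxycycline the count of called genes was 61 (1 higher and 60 lower) and stayed between 41 and 86 over 9 other settings, but was 22 at a 4-fold threshold. The median log2 ratio of -1.34 became -1.73 and -0.99 with pseudocounts of 0.1 and 5, -0.71 without a floor and -1.54 with a floor of 5 RPKM. The medians of the 9 enzyme classes were below 0 under every setting tried. Ranges were -0.27 to -1.71 for Cyp2, -1.37 to -2.21 for carboxylesterases and -0.75 to -0.999 for glutathione transferases. Cyp3a (-0.006 to -2.68), Cyp4 (-0.023 to -1.30) and sulfotransferases (-0.024 to -0.60) came close to 0 under some settings, so their sign is less secure. Between Yap-/- and Yap+/- the count of 1 became 3 with a pseudocount of 0.1, 0 at 4-fold and 72 where the counting interval leaves out equal levels, and the median of 0.08 became 0.034 and 0.046 under median-ratio and upper-quartile scaling. In that pair the medians of Cyp3a, Cbr, Ugt2, Sult and the mixed group changed sign under some settings, and no direction is read from them. Between the reference cultures the count of 17 became 11 with a pseudocount of 5, 11 without genes that share over 20% of their windows (an alternative chosen after seeing the data), 2 at 4-fold and 82 by counting interval. The median of 0.45 became 0.37 with a pseudocount of 5, 0.21 without a floor, and 0.58 and 0.55 under median-ratio and upper-quartile scaling. Of 660 values for single classes and named genes, 402 stayed within a counting interval centred on the value reported, and 258 moved further. For a class median, the interval was that of the member nearest to the median. No value that was called changed sign. Depth is not limiting at 1 RPKM, where a gene of 2 kb has 89.9 to 151 reads, but Ces1h and Ces1b had 1 and 3 reads in the induced library, so that their ratios of 53.6-fold (8.95 to 2183) and 11.2-fold lower (3.31 to 58.7) are loose.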

Other observations

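A few genes of oxidant and aldehyde defence outside the chosen families had the opposite order to most of the enzymes. Hmox1, the heme oxygenase gene, had 3.05 RPKM (Yap+/-), 0.923 RPKM (Yap-/-), 2.94 RPKM (uninduced) and 14.2 RPKM (induced), 3.30-fold lower without Yap (2.71 to 4.05) and 4.84-fold higher with doxycycline (4.28 to 5.50). Akr1b8, an aldo-keto reductase, was at 34.1, 16.2, 15.5 and 45.9 RPKM, 2.10-fold lower without Yap (1.98 to 2.24) and 2.96-fold higher with doxycycline (2.77 to 3.17). Slc7a11, the cystine carrier that feeds glutathione synthesis, was at 1.48, 0.595, 1.10 and 4.40 RPKM. Nqo1 and Gpx2, from the same antioxidant list, were 2.60-fold and 2.58-fold lower with doxycycline, so the list had 2 genes called in each direction. Cyp1a1, a P450 outside the symbol rule, was at 14.4 RPKM in Yap+/- and at 0.0564, 0.255 and 0.665 RPKM in the other libraries.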
